A study of Mus musculus with 4 samples.

Results

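The genes described here are those of Wnt signalling that code for its ligands, its Frizzled receptors and its regulators, measured in mouse neurospheres with and without mutation of Dll1, a Notch ligand. The rule that chose them uses names and no measured value, but it was set with earlier results of these data known. Every probe was taken whose gene name in the scan files began with Wnt, Fzd, Sfrp, Dkk or Dvl and a number, or was Lrp5, Lrp6, Axin1, Axin2, Lef1, Tcf7, Tcf7l1, Tcf7l2, Ctnnb1 or Wif1. This gave 70 probes for 49 genes, of 41174 probes for 27392 genes in all. No probe carried the name Tcf7l1, because the files use the older name Tcf3 for it. Of the 49 genes, 43 had a probe that passed the background filter, against 23109 genes in all. The filter kept a probe if, for at least 1 mutant line, mutant RNA or wild-type RNA was flagged well above background on both of that line's arrays.

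The cells were neurospheres, floating spheres grown from neural stem cells, kept in serum-free medium with EGF. Mice were of 129/Sv crossed with C57BL/6. Neurospheres of the Dll1-3 mutant line and of the Dll1-5 mutant line were each compared with wild-type neurospheres by hybridising both RNAs to the same 2-colour array. Each line had 2 arrays: mutant RNA was labelled with Cy5 in replicate 1 and with Cy3 in replicate 2. The RNA was pooled, and it is not settled by the labels whether a line's arrays were of the same pools or whether the lines shared their wild-type RNA. The series' design text speaks of 2 biological replicates, each a pool and each hybridised in both dye orientations. With 4 arrays this was read as 1 replicate for each line (n = 2 lines), so p-values measure only the spread between these lines. If the arrays of a line were instead of separate pools, n would be larger, and counts under that reading are given beside the main ones. The labels give no age and no molecular lesion for either mutant line. In pooled RNA of whole spheres, fewer cells of a type and less RNA per cell cannot be told apart.

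Wnt proteins are secreted lipid-modified ligands that bind Frizzled receptors together with the co-receptors Lrp5 and Lrp6. Binding recruits Dishevelled and Axin to the membrane, which spares β-catenin from the Axin, APC and GSK3 destruction complex, and β-catenin then enters the nucleus and acts with TCF/LEF factors on genes such as Axin2. In neural stem cells the pathway is known for its part in proliferation and in the choice of cell fate. Secreted proteins of the Sfrp, Dkk and Wif families hold it back outside the cell.

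Unless stated, values give the log2 ratio of mutant to wild-type RNA, so that 1 is a 2-fold higher signal in the mutant. The error beside a line's mean is how far each of its arrays lay from that mean, written "array spread", and the error over both lines is the SD between the line means. The main test was limma's on the line means, adjusted by the Benjamini-Hochberg method over all 23109 genes. Differences within a line, and between the lines, had no test and were counted by size.

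Fzd1, a Frizzled receptor, and Wif1, a secreted protein that binds Wnt ligands, were the members with mutant signal at least 2-fold higher on all 4 arrays, with means over both lines of 2.88 ± 0.79 (SD, n = 2 lines) and 1.94 ± 1.05 (SD, n = 2 lines). Fzd4 reached 2-fold in the Dll1-5 line. Ctnnb1, which codes for β-catenin, was near 2-fold lower in both lines, at -0.99 ± 0.03 (SD, n = 2 lines). Most of the module lay close to wild type: 31 of 43 members (72.1%) were within 0.5 of 0 in both lines, where 63.9% of all genes were. The median was 0.00 over the members and 0.01 over all genes.

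No member, and no gene of all measured, had an adjusted p below 0.05 in limma's test, and the smallest adjusted p of any gene was 0.0755 (percent of all genes called: 0). At an unadjusted limma p below 0.05, 9 of 43 members (20.9%) were called, where 27.5% of all genes were. Of these, 6 were higher in the mutants (Fzd1, Fzd4, Fzd7, Lrp5, Tcf7 and Wif1), against 12% of all genes, and 3 were lower (Ctnnb1, Wnt3 and Wnt5b), against 15.5%. The share called was thus below that of all genes. When the 4 arrays were counted as separate samples, 11 of 43 members (25.6%) had an adjusted limma p below 0.05, where 33.7% of all genes did. By size, 2 of 43 members (4.65%) were at least 2-fold with 1 sign on all 4 arrays, where 4.41% of all genes were, so the share was near the background. Both were higher, against 1.68% of all genes, and none was lower, against 2.73%. In the Dll1-3 line 2 members (4.65%) were at least 2-fold on both arrays, where 10.5% of all genes were, and both were higher (4.44% of all genes higher, 6.08% lower). In the Dll1-5 line it was 3 members (6.98%), where 6.67% of all genes were, and all 3 were higher (3% of all genes higher, 3.67% lower).

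**Figure D1:**
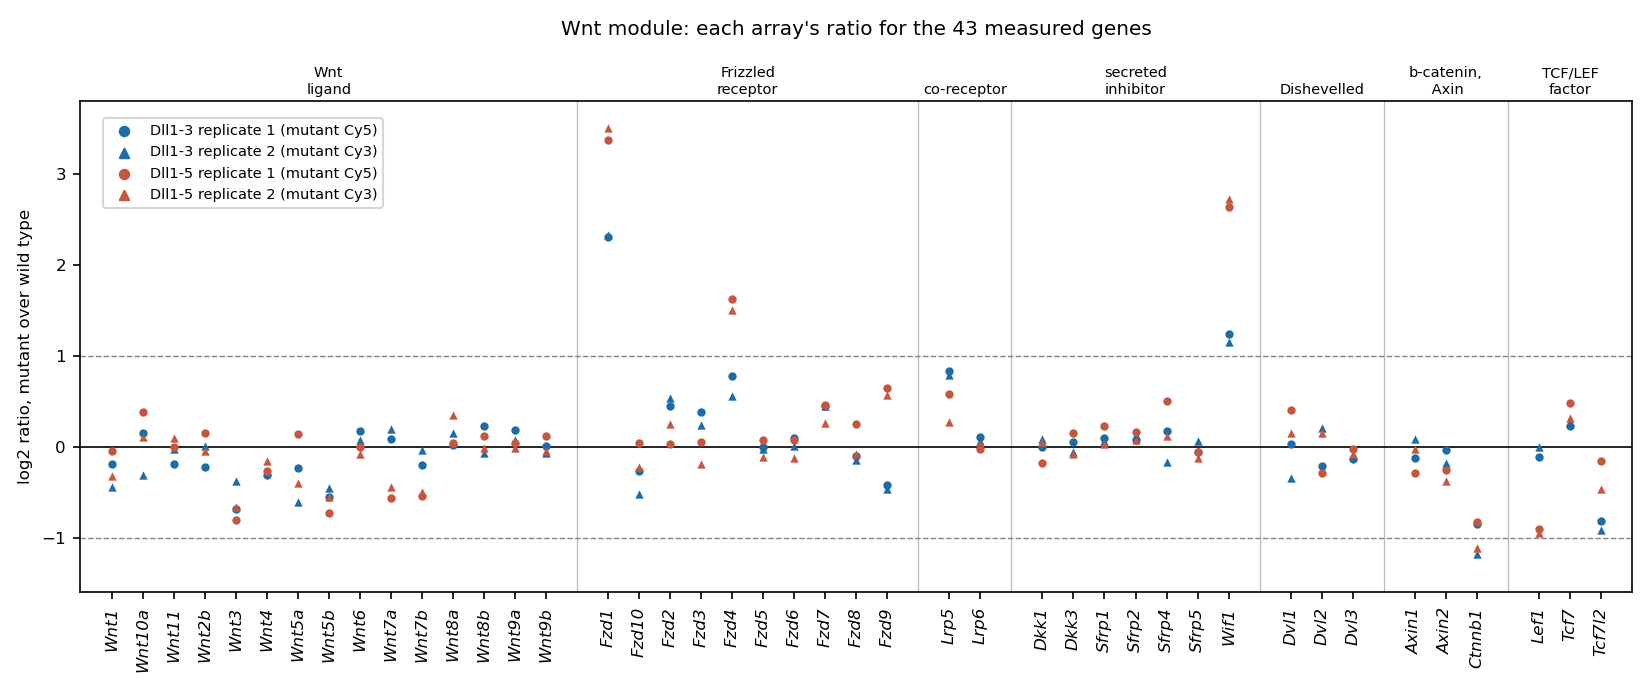
Log2 ratio of mutant over wild-type signal (vertical axis) of the 43 measured genes (horizontal axis), grouped by role. Each point is 1 array, blue for Dll1-3 and red for Dll1-5, circles with mutant RNA in Cy5 and triangles with it in Cy3, and dashed lines mark 2-fold. All 4 points of Fzd1 and Wif1 lie above the upper dashed line, and most other genes lie within 0.5 of 0.

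As a check of the labels, the Dll1 probe was below wild type on every array, at -3.31 and -3.22 in Dll1-3 and at -1.65 and -1.64 in Dll1-5. Wild-type RNA gave signal well above background at 80.0% to 82.1% of probes. The marker lists of the cell types a neurosphere could hold were read in the same way, with no test. Markers of neural stem cells were above background in wild-type RNA on all 4 arrays for 10 of 10 genes, with a median of -0.58 over both lines (range -2.57 to 0.71). For astrocytes it was 7 of 7, with a median of -1.20 (-3.75 to 0.08), and for neurons 7 of 7, with a median of -1.01 (-1.99 to 0.08). The oligodendrocyte lineage had 6 of 7 above background, with a median of -0.52 (-2.48 to 2.59). Markers of endothelial, mural and fibroblast cells had 5 of 8 (median 0.04, from -0.82 to 2.59). Cspg4 is in this list and in that of the oligodendrocyte lineage, was above background in both, and the 2 lists share their highest value. Those of ependyma and choroid plexus had 4 of 5 (median -0.17, from -1.74 to 0.24), with Ttr above background on no array. Of the microglia and blood markers, 3 of the 6 on the array were above background (median 0.02, from -0.32 to 0.08), and Itgam was so on no array. The part of these markers in the Wnt values was not tested.

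Which Wnt genes gave signal in these cultures was read from the background flags, which 80.0% to 82.1% of all probes passed in wild-type RNA. A flag near the floor is weak support for transcription. Dkk3, Wnt8b, Sfrp1 and Dkk1 passed at mean log2 intensities of 6.28, 6.3, 6.34 and 6.37, while the Wnt2 probe failed at 6.36. In wild-type RNA, 41 of the 49 genes were well above background on all 4 arrays. These were 13 of 19 ligands, all 10 Frizzled receptors, both co-receptors, 7 of 9 secreted inhibitors, all 3 Dishevelled genes, all 3 of the β-catenin and Axin genes and all 3 TCF/LEF genes. In mutant RNA it was 40 genes, the difference being Wnt5a, which was above background on 3 of 4 mutant channels. Wnt16, Wnt3a, Dkk2 and Dkk4 were above background in wild-type RNA on no array. These 4 genes, with Wnt2 and Wnt10b, had no passing probe and have no ratio here. Wnt8a and Wnt10a passed with wild-type RNA above background on only 2 of 4 arrays each.

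The 15 measured ligands ranged from -0.53 to 0.15 in Dll1-3 and from -0.73 to 0.24 in Dll1-5, and none reached 2-fold in either line. Their median over both lines was -0.03, against 0.01 for all genes. Of the 15, 11 lay within 0.5 of 0 in both lines. On all 4 arrays 5 ligands were below wild type (Wnt1, Wnt3, Wnt4, Wnt5b and Wnt7b) and 1 was above it (Wnt8a). The same sign on all 4 arrays was thus seen in 40% of the ligands, where 49.7% of all genes had it. Wnt8a passed the background filter only through the mutant RNA of Dll1-5.

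Wnt3, a ligand that acts through β-catenin, read -0.69 and -0.37 in Dll1-3 and -0.80 and -0.67 in Dll1-5. All 4 arrays were below wild type, and the ranges of the lines overlapped. Its mean was -0.63 ± 0.15 (SD, n = 2 lines), with limma's adjusted p at 0.0938. A second Wnt3 probe, dimmer in these cultures, had a mean of -0.36, and with the scanner's own ratios, which are not compressed by an offset, the mean was -1.62. Wnt5b, best known for signalling that does not need β-catenin, read -0.56 and -0.46 in Dll1-3 and -0.73 and -0.55 in Dll1-5. Its mean was -0.57 ± 0.09 (SD, n = 2 lines), with limma's adjusted p at 0.0911 and its second probe at -0.27. Its lines overlapped as well, and every array was below wild type.

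Wnt7a and Wnt7b are close relatives that the developing brain is known to express. Wnt7a read 0.09 and 0.20 in Dll1-3 and -0.56 and -0.44 in Dll1-5, so the lines lay on opposite sides of wild type and did not overlap. Wnt7b read -0.20 and -0.04 in Dll1-3 and -0.54 and -0.50 in Dll1-5, below wild type on every array. The lowest values of both genes were thus those of the Dll1-5 line. Wnt1 had a mean of -0.25, Wnt4 of -0.25 and Wnt5a of -0.28. The other measured ligands, Wnt2b, Wnt6, Wnt8a, Wnt8b, Wnt9a, Wnt9b, Wnt10a and Wnt11, had means between -0.03 and 0.14. In Dll1-3, Wnt10a read 0.15 and -0.31. Mutant RNA was well above background there on no array and wild-type RNA on only 1, so no direction or bound is given.

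The receptors held the module's highest member. Fzd1 read 2.31 and 2.33 in Dll1-3 and 3.37 and 3.50 in Dll1-5. All 4 arrays were far above wild type, and both Dll1-5 arrays were above both Dll1-3 arrays. The line means were 2.32 ± 0.01 (array spread, 2 arrays), or 5.00-fold, in Dll1-3 and 3.44 ± 0.07, or 10.8-fold, in Dll1-5. Over both lines the ratio was 7.36-fold, and limma's adjusted p was 0.0798. The channel signals show where the ratio came from: on a log2 scale, wild-type signal was 8.89, 8.93, 9.07 and 8.96 over the 4 arrays, and mutant signal was 11.20 and 11.26 in Dll1-3 and 12.44 and 12.46 in Dll1-5. Wild-type signal thus varied by less than 0.5 while both mutant lines stood above it. The single Fzd1 probe lies on chromosome 5 from 4760009 to 4760068 in the coordinates of the array's design, of unstated genome build. No source used here says whether any of the probes lies in coding or untranslated sequence.

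**Figure D2:**
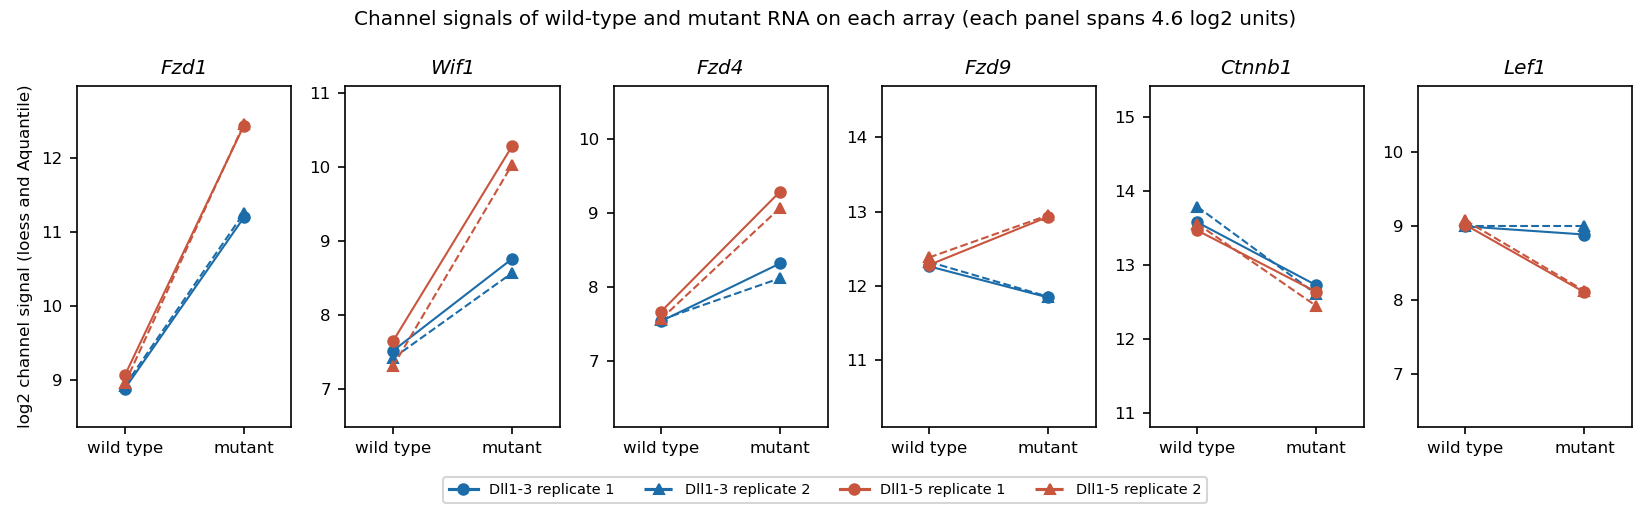
Channel signals on a log2 scale after loess and between-array scaling (vertical axis) of wild-type and mutant RNA (horizontal axis) for 6 genes, with 1 line for each array, blue for Dll1-3 and red for Dll1-5, and each panel spanning the same height. Wild-type signals of Fzd1 and Wif1 lie close together while the mutant signals are higher, most of all in Dll1-5, and the levels of different genes are not comparable because their probes differ.

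The promoters of 3 members are printed because Fzd1 and Wif1 were the members 2-fold higher on every array and Ctnnb1 had the lowest mean. Each is the 250 bases before the RefSeq start site on assembly GRCm38.p6, read 5′ to 3′ on the gene's own strand: chr5:4758217-4758466 on the minus strand for Fzd1, chr10:121033754-121034003 on the plus strand for Wif1 and chr9:120933150-120933399 on the plus strand for Ctnnb1, the first of 2 listed for that gene. Capitals mark a CACGTG E-box, the only match among the motifs searched in these 3 sequences.
Fzd1 promoter: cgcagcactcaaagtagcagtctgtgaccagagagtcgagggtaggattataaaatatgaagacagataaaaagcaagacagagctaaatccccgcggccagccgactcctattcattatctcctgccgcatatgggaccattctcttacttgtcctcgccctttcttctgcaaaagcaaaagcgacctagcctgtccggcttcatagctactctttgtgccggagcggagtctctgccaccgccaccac
Wif1 promoter: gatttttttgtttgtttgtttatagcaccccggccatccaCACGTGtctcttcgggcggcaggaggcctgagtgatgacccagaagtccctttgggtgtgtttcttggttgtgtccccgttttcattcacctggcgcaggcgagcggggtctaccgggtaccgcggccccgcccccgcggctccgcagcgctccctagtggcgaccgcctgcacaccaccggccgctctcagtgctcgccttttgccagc
Ctnnb1 promoter: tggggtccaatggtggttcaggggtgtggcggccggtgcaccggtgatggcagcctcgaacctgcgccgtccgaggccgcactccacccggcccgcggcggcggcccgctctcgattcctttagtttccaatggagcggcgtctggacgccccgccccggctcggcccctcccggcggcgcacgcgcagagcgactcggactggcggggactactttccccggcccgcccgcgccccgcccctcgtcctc
Of the bases, 51.2% were G or C in Fzd1, 62.8% in Wif1 and 74.8% in Ctnnb1, against a median of 52.4% over all 32851 promoters listed. RefSeq promoters were listed for 34 of the 49 members, as 43 sequences. On both strands, CACGTG was in 11.6% of members' promoters and 6.02% of all promoters. The members were Dvl2, Fzd9, Lef1, Wif1 and Wnt9a. The TCF/LEF motif CTTTGAT was in 4.65% of members' promoters (Wnt5b and Wnt11) and 3.21% of all, and CTTTGTT was in 6.98% (Dkk1, Fzd7 and Tcf7l2) and 5.03%. GTGGGAA, the motif of RBPJ, the DNA-binding factor of Notch signalling, was in 2.33% of members' promoters, that of Wnt9a, and in 5.42% of all. CACGTG reads the same on both strands, it can overlap GTGGGAA at the letters GTG, and a promoter was counted once for each motif. A match describes the letters in this window only.

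Fzd4, a receptor known also for vascular growth, read 0.78 and 0.56 in Dll1-3 and 1.62 and 1.501 in Dll1-5. Every array was above wild type, and the lines did not overlap. The line means were 0.67 ± 0.11 and 1.56 ± 0.06 (array spread, 2 arrays), or 1.59-fold and 2.95-fold. Over both lines the mean was 1.12 ± 0.63 (SD, n = 2 lines), with limma's adjusted p at 0.155. Its probe lies on chromosome 7 from 83386474 to 83386533. Wild-type channel signal was between 7.54 and 7.67, and mutant signal was 8.32 and 8.12 in Dll1-3 and 9.29 and 9.07 in Dll1-5.

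Fzd9 was the receptor with both Dll1-3 arrays below wild type and both Dll1-5 arrays above it. It read -0.42 and -0.47 in Dll1-3 and 0.65 and 0.57 in Dll1-5. The line means were -0.44 ± 0.02 and 0.61 ± 0.04 (array spread, 2 arrays), so the mean over both lines was 0.08 ± 0.74 (SD, n = 2 lines), with limma's adjusted p at 0.910. Its wild-type channel signal was 12.26, 12.32, 12.28 and 12.38, and its mutant signal was 11.84 and 11.85 in Dll1-3 and 12.93 and 12.95 in Dll1-5. The probe lies on chromosome 5 from 134262438 to 134262497.

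Of the other 7 receptors, Fzd7 and Fzd2 were above wild type on all 4 arrays. Fzd7, a receptor found on many stem cells, read 0.45, 0.45, 0.46 and 0.26, with a mean of 0.41 and limma's adjusted p at 0.118. Its second probe, of similar brightness, had a mean of 0.22. That probe read -0.09 and -0.002 in Dll1-3 and 0.55 and 0.40 in Dll1-5, so it showed no rise in Dll1-3. Fzd2 had a mean of 0.32. Fzd5, Fzd6 and Fzd8 lay within 0.02 of 0 over both lines. Fzd3 had a mean of 0.12 and a second probe at -0.17. Fzd10 had a mean of -0.24, but its second probe read -0.84 and -0.85 in Dll1-3 and -0.94 and -0.95 in Dll1-5. In Dll1-5 the mutant RNA was not flagged well above background at that second probe, so its signal was at least 1.92-fold lower there. The probes of Fzd10 therefore differ in size.

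The co-receptors differed from each other. Lrp5 read 0.84 and 0.79 in Dll1-3 and 0.58 and 0.27 in Dll1-5, above wild type on every array, and the lines did not overlap. Its mean was 0.62 ± 0.28 (SD, n = 2 lines), with limma's adjusted p at 0.138. Lrp6 read 0.10, 0.06, -0.02 and 0.03, with a mean of 0.04.

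Among the 7 measured secreted inhibitors, Wif1 stood apart by size. Wif1 read 1.24 and 1.15 in Dll1-3 and 2.63 and 2.72 in Dll1-5. All arrays were above wild type, and the Dll1-5 arrays were above the Dll1-3 arrays. The line means were 1.20 ± 0.05 and 2.68 ± 0.04 (array spread, 2 arrays), or 2.29-fold and 6.39-fold. Over both lines the ratio was 3.83-fold, and limma's adjusted p was 0.144. Wild-type channel signal was 7.52, 7.42, 7.65 and 7.31, and mutant signal was 8.76 and 8.57 in Dll1-3 and 10.28 and 10.03 in Dll1-5. The single probe lies on chromosome 10 from 120683472 to 120683531. With median centring in place of loess, Wif1 was no longer 2-fold on both Dll1-3 arrays, and Fzd1 was then the 1 member 2-fold on all 4 arrays.

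The other 6 inhibitors lay within 0.5 of 0 in both lines. Sfrp1 and Sfrp2, decoys with a Frizzled-like domain, had means of 0.11 each. Sfrp4 had a mean of 0.16 and Sfrp5 of -0.04. Dkk1, which blocks Lrp5 and Lrp6, had a mean of -0.01, and Dkk3 of 0.02. Dishevelled proteins carry the signal from Frizzled into the cell. Dvl1, Dvl2 and Dvl3 had means of 0.06, -0.04 and -0.08, and their line means lay between -0.16 and 0.28.

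β-catenin is both the carrier of the signal and a part of cell-cell junctions. Ctnnb1 read -0.85 and -1.18 in Dll1-3 and -0.83 and -1.11 in Dll1-5. Every array was below wild type, the lines overlapped, and in each line the array with mutant RNA in Cy3 was the lower. The line means were -1.01 ± 0.16 and -0.97 ± 0.14 (array spread, 2 arrays), or 2.02-fold and 1.96-fold lower. Limma's adjusted p was 0.0755, the smallest value that any gene reached. Of the other Ctnnb1 probes, 1 had a mean of -0.98, with arrays at -1.02, -0.97, -0.97 and -0.95, and 1 had a mean of -0.60, with arrays at -0.67, -0.91, -0.29 and -0.52. All 12 readings of the 3 probes were below wild type. The brightest probe lies on chromosome 9 from 120972551 to 120972610. With median centring in place of loess the mean was -0.59.

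Axin2, a part of the destruction complex and a widely used target gene of the pathway, read -0.03 and -0.18 in Dll1-3 and -0.26 and -0.38 in Dll1-5. All arrays were below wild type, by small amounts, and the lines did not overlap. Its mean was -0.21 ± 0.15 (SD, n = 2 lines), with limma's adjusted p at 0.326. Its probe lies on chromosome 11 from 108771756 to 108771815. Axin1, the scaffold of the same complex, had a mean of -0.09.

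The TCF/LEF factors bind DNA and recruit β-catenin. Lef1 read -0.11 and -0.001 in Dll1-3 and -0.91 and -0.95 in Dll1-5. The Dll1-3 arrays were near wild type and the Dll1-5 arrays were close to 2-fold lower, with no overlap. The mean was -0.49 ± 0.62 (SD, n = 2 lines), with limma's adjusted p at 0.395. In Dll1-5 its wild-type channel signal was 9.02 and 9.08 and its mutant signal 8.11 and 8.13. This probe lies on chromosome 3 from 130154095 to 130154154. A second Lef1 probe read 0.22 and 0.06 in Dll1-3 and -0.27 and -0.28 in Dll1-5, so its lines did not overlap either, in the same order and at a smaller size.

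Tcf7 read 0.23, 0.27, 0.48 and 0.32, with a mean of 0.32 and limma's adjusted p at 0.170, and with the scanner's ratios its mean was 0.82. Its second probe was higher, at 0.73 and 0.41 in Dll1-3 and 1.34 and 1.07 in Dll1-5. On both probes every array was above wild type. Tcf7l2 read -0.82 and -0.91 in Dll1-3 and -0.16 and -0.47 in Dll1-5, with a mean of -0.59 and limma's adjusted p at 0.202. The other 3 probes of Tcf7l2 were dimmer and had means of -0.02, -0.09 and -0.17, so its value rests on 1 probe. The gene that the files call Tcf3, named Tcf7l1 by its RefSeq accession and therefore outside the rule of choice, read -1.52 and -1.37 in Dll1-3 and -0.79 and -0.71 in Dll1-5. Its mean was -1.10 ± 0.49 (SD, n = 2 lines), with limma's adjusted p at 0.123.

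**Figure D3:**
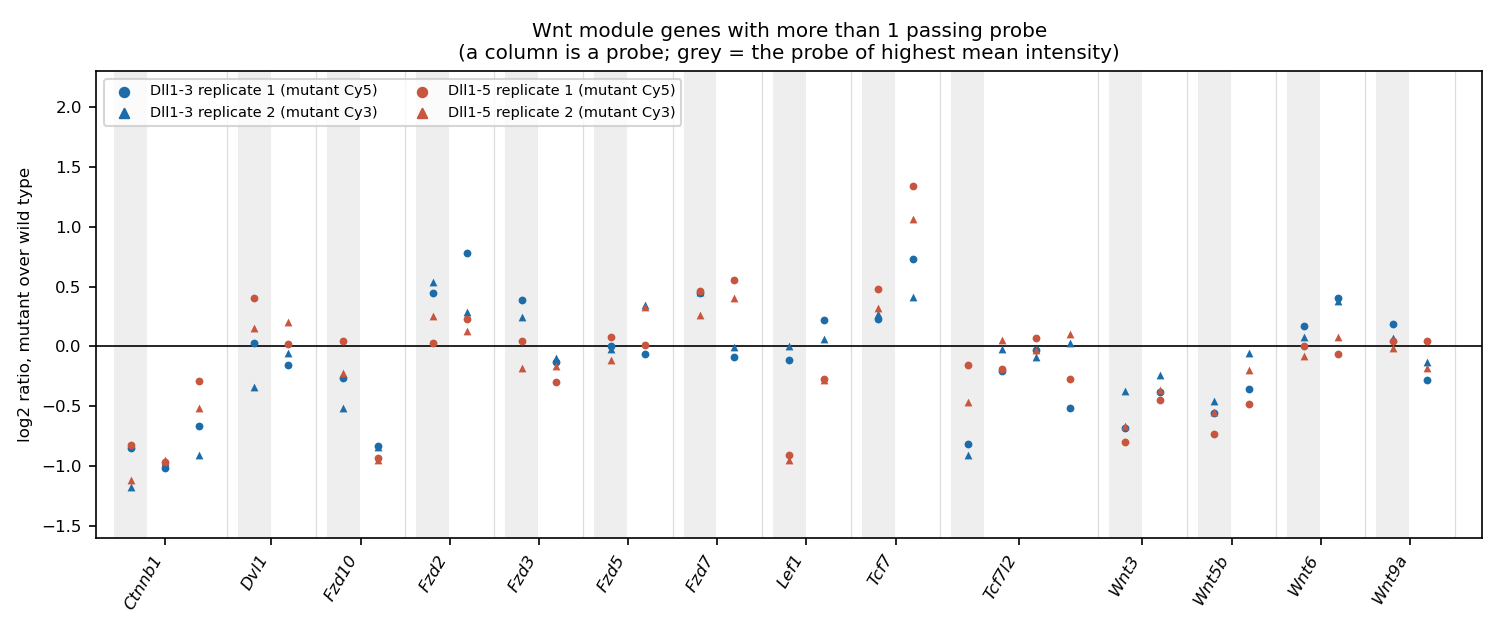
Log2 ratio of mutant over wild-type signal (vertical axis) for each passing probe of the 14 genes with more than 1 (horizontal axis, a column for each probe, the brightest shaded). Points are single arrays, blue for Dll1-3 and red for Dll1-5. The 3 Ctnnb1 probes all lie below 0, while the probes of Fzd10, Tcf7 and Tcf7l2 differ by over 0.5 in mean.

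How far a value depends on its probe could be read from the 14 genes with more than 1 passing probe. Probe means had opposite signs in 3 of them (Fzd3, Fzd5 and Wnt9a), all within 0.5 of 0, and lay over 0.5 apart in 3 (Fzd10, Tcf7 and Tcf7l2). The other 29 genes, Fzd1, Fzd4, Fzd9, Wif1, Axin2 and Lrp5 among them, rest on 1 passing probe each.

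The lines were then set side by side. Line means at least 1 apart, with no overlap of arrays, were found for 3 of 43 members (6.98%), where 4.38% of all genes differed so. These were Wif1, Fzd1 and Fzd9, with Dll1-5 minus Dll1-3 at 1.48, 1.12 and 1.05. In all 3 the Dll1-5 line was the higher, against 2.73% of all genes in that direction, and no member was lower, against 1.65%. The next members by size were Fzd4 at 0.89 and Lef1 at -0.87. With 1 pooled replicate for each line these differences had no test. Because the lines may share wild-type RNA, no correlation of their ratios is given.

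**Figure D4:**
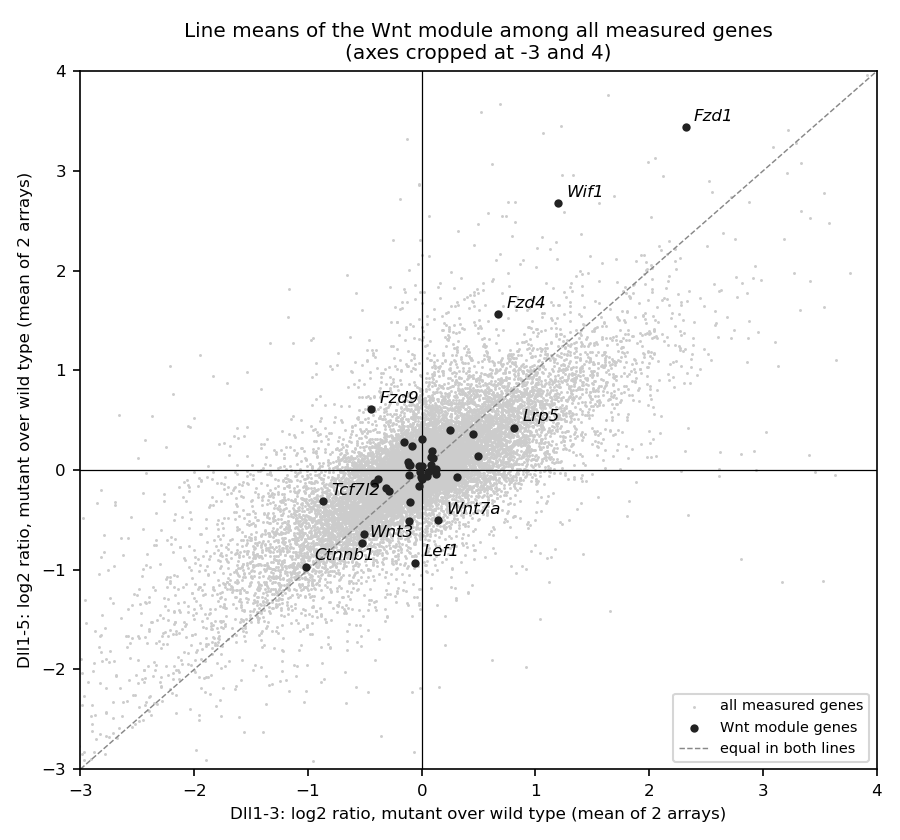
Mean log2 ratio of mutant over wild type in Dll1-3 (horizontal axis) and in Dll1-5 (vertical axis), each the mean of 2 arrays, for the module (black) and all measured genes (grey), cropped at -3 and 4. Fzd1, Wif1, Fzd4 and Fzd9 lie above the dashed line of equal ratios, and Lef1 lies below it.

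Beyond the module, a list of 70 other genes of the pathway was described, covering ligand secretion, receptor turnover, cell polarity, the destruction complex and targets. It was drawn up with earlier results of these data known. All 70 were on the array and 65 were measured, with medians of -0.09 over both lines, -0.11 in Dll1-3 and -0.07 in Dll1-5. None had an adjusted p below 0.05 in limma's test. At an unadjusted limma p below 0.05, 7 of 65 (10.8%) were higher, against 12% of all genes, and 16 (24.6%) were lower, against 15.5%. By size, 9 (13.8%) were 2-fold with 1 sign on all 4 arrays, 4 higher and 5 lower, where 4.41% of all genes were. With median centring in place of loess it was 3 (4.62%), 2 higher and 1 lower, where 1.66% of all genes were.

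On the side of ligand release, Wls, the carrier that brings Wnt proteins to the cell surface, had a mean of -1.36 ± 0.02 (SD, n = 2 lines), with limma's adjusted p at 0.0755 and a second probe at -1.45. Rnf43, a ubiquitin ligase that removes Frizzled receptors from the membrane, was at -1.95 ± 0.14 (SD, n = 2 lines), with a second probe at -0.78. Apcdd1, an inhibitor at the membrane, was at -4.13 ± 0.76 (SD, n = 2 lines), but its second probe was at 0.36, of opposite sign. Vangl2 and Prickle2 belong to the planar cell polarity branch. Vangl2 was at -1.44, with line means of -1.35 and -1.52. Prickle2 was at -1.45, with line means of -1.73 and -1.17 and other probes at -1.09 and -0.04, and with the scanner's ratios its mean was -2.58. Of the same branch, Vangl1 was at 1.06, above wild type on all 4 arrays, and Prickle1, Celsr1, Celsr2 and Celsr3 were at 0.02, -0.13, -0.23 and -0.06.

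Of the 9 genes 2-fold on all 4 arrays, the 4 above wild type were 3 that are often counted as targets of β-catenin and TCF, though many other signals act on them, and 1 secreted inhibitor. Of the 5 below wild type, Rnf43 and Apcdd1 are often counted as such targets too, so among these 9 genes targets lay on both sides. The second Apcdd1 probe was of opposite sign, as given above. Targets on the list that were not 2-fold on all 4 arrays are left out of this reading. Ccnd1, a cyclin of the cell cycle, was at 1.97, with line means of 2.28 and 1.65. Myc, a growth factor-responsive transcription factor, was at 1.83, with line means of 1.58 and 2.07 and other probes at 1.85 and 0.72. Cd44, a receptor for hyaluronan, was at 1.60, with line means of 1.85 and 1.35 and other probes at 1.75 and 0.01. Sostdc1, the remaining gene of the 9, was at 1.31. Members that are also used as targets did not all go the same way. Tcf7, at times counted as a target, was above wild type on all 4 arrays on both probes. Dkk1, at times counted too, had a mean of -0.01. Axin2 was below wild type on all 4 arrays by small amounts. Lef1 was near wild type in Dll1-3, with its probes on opposite sides, and lower in Dll1-5, as given above.

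**Figure D5:**
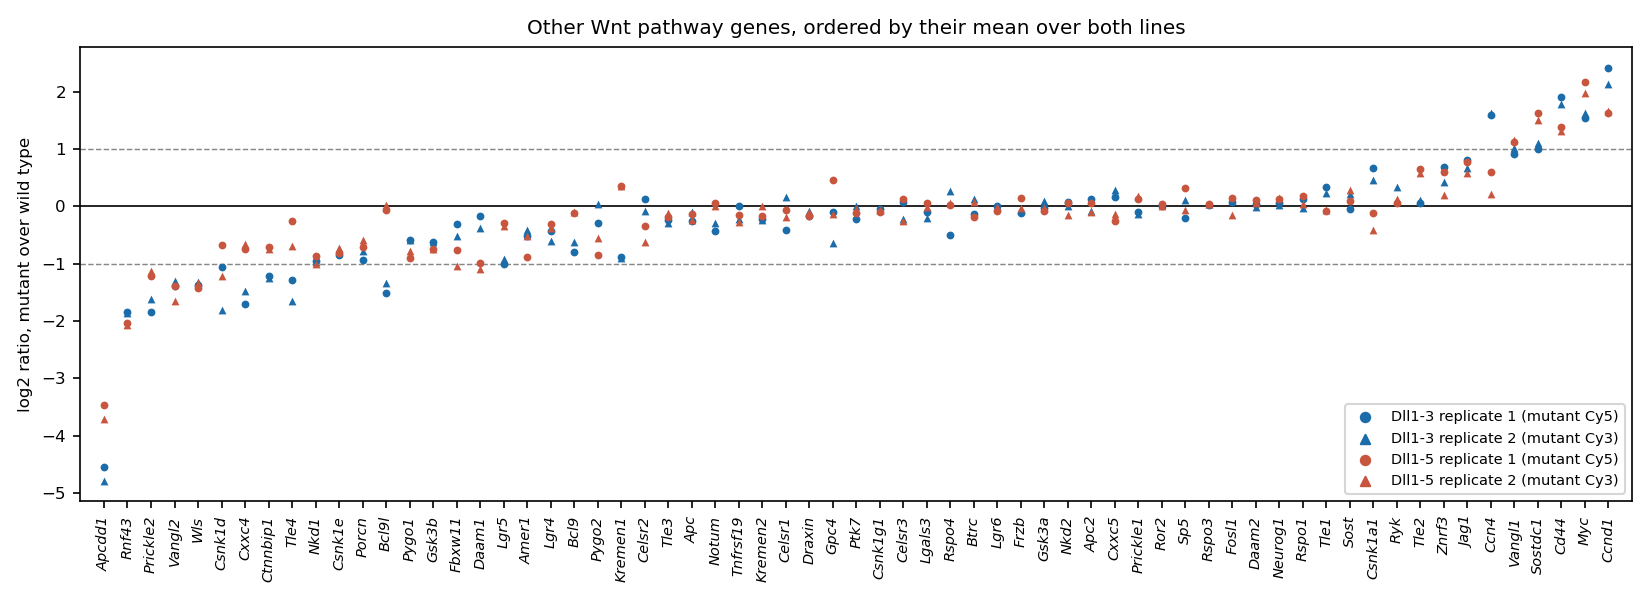
Log2 ratio of mutant over wild-type signal (vertical axis) for the 65 measured other pathway genes (horizontal axis), ordered by their mean over both lines. Points are single arrays, blue for Dll1-3 and red for Dll1-5, and dashed lines mark 2-fold. Apcdd1 is lowest at -4.13 and Ccnd1 is highest at 1.97, and most genes lie between the dashed lines.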

How the data were processed

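The 4 arrays were Agilent 2-colour arrays of 43790 spots, 2256 of them controls. Per the submitters' processing notes, scans were read with Agilent Feature Extraction 8.1.1.1, and the deposited files hold spot intensity values of both dyes. Those files also carry the scanner software's own log10 ratio (Cy5 to Cy3, per the file headers). The series' value table, as deposited, is log10 too. Against mutant over wild type its r was between -0.962 and -0.954 and its slope was -1, so its direction is wild type over mutant. Column medians were -0.03, 0.01, -0.02 and 0.01, and its centring stays unknown. Scanner ratios and value table were alternatives only.

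Mean signals were corrected with normexp at an offset of 50, which compresses the ratios of dim probes, and normalised by loess within arrays (span 0.3). The software was R 4.3.3 and its package limma 3.58.1. Control and outlier spots (27 to 115 per array) were left out, and saturated spots kept. Of 41174 probes, 34446 passed the background filter. A gene took its passing probe of highest mean intensity. Line means, with dyes balanced, were tested against 0 with limma (1 residual degree of freedom, prior 1.64) and Benjamini-Hochberg adjustment over 23109 genes. The spread among wild-type pools does not enter this test. Gene names outside the module came from the RefSeq table of GRCm38.p6 by accession for 13750 genes, symbol for 2476 and synonym for 1359, and 5524 kept the file's name.

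The replicate number is the dye orientation, per the labels, and names no pair of samples. Bounds for probes below background set the brighter group's mean against the dimmer group's, or the lowest signal well above background if higher.

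Members and lists were chosen with earlier results of these data known. Given on every array were members 2-fold in a line or differing between lines, with Fzd1, Axin2, Lef1 and Ctnnb1, and of the other pathway genes the 8 largest that were 2-fold on all arrays. Any other gene given on every array, and Sostdc1, Vangl1, Prickle1, Celsr1, Celsr2 and Celsr3, was added after its values were seen. Alternatives covered the background correction, normalisation, filter, choice of probe, the test, arrays counted separately with or without the replicate block, and leaving out each array. Array number limits precision.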

Additional observations from a re-analysis of the deposited data

Results flagged for a closer look

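In 3 of 43 members (6.98%), both arrays of Dll1-3 lay on one side of wild type and both arrays of Dll1-5 on the other, where 9.96% of all genes did so. Fzd9 was below wild type in Dll1-3 and above it in Dll1-5, with Dll1-5 minus Dll1-3 at 1.05 (log2). Wnt7a was above wild type in Dll1-3 and below it in Dll1-5, with a difference of -0.65. Wnt6 had the smallest, at -0.17, with Dll1-5 arrays at 0.00 (to 2 decimals) and -0.08. Its second probe read 0.40 and 0.38 in Dll1-3 and -0.065 and 0.08 in Dll1-5, so the pattern was not seen on that probe. With 1 pooled replicate for each line, the difference was not tested in any of the 3. When the dye-swapped arrays were counted as separate samples without the replicate block, limma's adjusted p for the difference was 0.00353 for Fzd9, 0.0151 for Wnt7a and 0.373 for Wnt6, and with the block 0.00126, 0.00254 and 0.0765. Whether the arrays of a line are biological replicates is not settled by the labels.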

How the results depend on the processing

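Fzd1, Wif1, Fzd4, Fzd9, Ctnnb1, Axin2, Lef1, Fzd7, Lrp5, Tcf7, Tcf7l2, Wnt3, Wnt5b, Wnt7a, Tcf7l1 and the 8 other pathway genes of largest mean kept their direction over both lines under each of the 18 alternatives run for them. The count of 41 genes above background in wild-type RNA had fewer alternatives. It was the same at 3 of 4 arrays, with the brightest probe only and leaving out each array. No member passed limma's adjusted p over both lines, but 11 did with arrays as separate samples and no replicate block (33.7% of all genes), 10 with the replicate block (29.1%), 10 with the line as a random block (28.9%), 2 with an intensity trend (Fzd1 and Wnt3; 5.21%) and 1 at an offset of 10 (Fzd1; 3.99%). The replicate number stands for the dye: within-line deviations of replicate 1, which leave out the line means, correlated across genes at 0.702 (22918 genes). Leaving out 1 array gave 0 to 2, the 2 being Ctnnb1 and Fzd1 without Dll1-3 replicate 1 (7.36% of all genes) or Dll1-5 replicate 2 (7.14%). Members 2-fold in Dll1-3 were 4 with the deposited value table (16.5% of all genes) and 4 with scanner ratios (16.9%), Wnt3 and Wnt5a being added as lower, 1 with median centring (4.67%), and 2 to 3 leaving out an array. In Dll1-5 they were 5 with the deposited table (12.2%), with scanner ratios (12.5%) and at an offset of 10 (9.05%), Lef1 and Wnt3 being added as lower, and 3 to 4 leaving out an array. On all 4 arrays there was 1 with median centring (1.66%), and 2 leaving out an array. Members differing between the lines by size were 8 with the deposited table (9.96%), 8 with scanner ratios (9.99%), 1 with median centring (Wif1; 2.75%), and 3 to 4 leaving out an array. With arrays as separate samples, limma's adjusted p with no limit of size is another rule: without the replicate block it called 15 members in Dll1-3 (43.7% of all genes), 14 in Dll1-5 (36.8%) and 7 between the lines (18.2%), and with the block 21 (59.8%), 22 (53.8%) and 17 (39.8%). The 9 other pathway genes became 3 with median centring (Apcdd1, Myc and Sostdc1), and 9 to 10 leaving out an array. With probes averaged, Apcdd1 was at -1.88, Prickle2 at -0.86 and Tcf7l2 at -0.22. Over the alternatives limma's adjusted p lay between 0.000801 and 0.107 for Fzd1, 0.00640 and 0.172 for Wif1 and 0.000921 and 0.121 for Ctnnb1. The cause of these shifts was not tested. Low signal limits Wnt8a, Wnt10a and the 6 ligand and inhibitor genes with no passing probe. It also limits dim passing members such as Dkk1, Dkk3, Sfrp1 and Wnt8b.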

Other observations

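A probe is named in the files by its clone, D930050A07Rik, a name that RefSeq now lists under Fzd3. The link to Fzd3 is by that name and was not tested. This probe read -1.29 and -1.53 in Dll1-3 and -1.33 and -1.503 in Dll1-5, so it was 2-fold lower on all 4 arrays. Its mean was -1.41 ± 0.01 (SD, n = 2 lines), with limma's adjusted p at 0.0755. It lies on chromosome 14 from 59719685 to 59719744, in the coordinates of the array's design. The probes that the files name Fzd3 had means of 0.12 and -0.17. Of the other clone probes that RefSeq assigns to members, AI427138 (Fzd5) had a mean of 0.21 and C030016K15Rik (Lrp6) of -0.08. These 3 probes were outside the rule by which the members were chosen.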
